A study of Mus musculus with 4 samples.

Results

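Toll-like receptor and NF-kB signalling is represented here by 9 genes, chosen by symbol among the gene rows of the 4 count matrices, so 9 of 32285 genes: the receptors Tlr2 and Tlr4, the adaptor Myd88, the transcription factor subunits Nfkb1 and Relb, the inhibitors Nfkbia and Tnfaip3, and the cytokines Il1b and Tnf. No measured value served as a filter, but the choice was made with earlier results of these data known. The question was whether Kit+ bone marrow cells of the Mll3 and Mll4 mutants show a general inflammatory pattern or an interferon pattern. Single-cell RNA was counted together with barcoded antibodies (CITE-seq) in CD45.2+Kit+ bone marrow cells taken 10 weeks after transplantation. There were 4 mouse libraries, 1 of each genotype: control, Mll3SI, Mll4SI and Mll3/4SI. The labels do not spell out SI, and the library names write mll3KI, mll4KI and dKI for the mutants and wt for the control. Mll3 and Mll4 are the histone H3 lysine methyltransferases encoded by Kmt2c and Kmt2d, which act at enhancers. With 1 library per genotype, no difference between genotypes could be tested against the spread between animals, and every interval below covers counting error alone.

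Toll-like receptors sense microbial molecules: Tlr4 is known for responses to bacterial lipopolysaccharide and Tlr2 for responses to bacterial lipoproteins. Both pass the signal through the adaptor Myd88 to kinases that mark IkB-alpha, the product of Nfkbia, for destruction, and this frees NF-kB dimers, of which the Nfkb1 product p50 is a common part, to enter the nucleus. NF-kB then raises the transcription of cytokines such as Tnf and Il1b and also of its own brakes, Nfkbia and the ubiquitin-editing enzyme A20 encoded by Tnfaip3, so Nfkbia and Tnfaip3 are widely read as reporters of recent activity. Relb belongs to the slower non-canonical arm. Blood progenitors carry Toll-like receptors, and interferons drive a different program through STAT proteins, with Isg15 among its best known targets.

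The letters before a RefSeq start of some of the genes hold motifs of both programs. RefSeq windows of GRCm38.p6, cut to the 250 bases before the annotated start, were found for 6 of the 9 genes. Neither motif searched was found in those of the cytokines Tnf and Il1b, which says only that these letters are not in the window. A kB element (the classical consensus, searched on both strands) occurred in those of Nfkbia, Tnfaip3 and Tlr2, against 8.23% of the 27025 genes with a window genome-wide. The interferon-stimulated response element core, GAAANNGAAA on either strand, occurred in 7 of 12 interferon-response genes with a window and in 1 of these 6 genes, Myd88, against 3.46% of all genes with a window. The 3 windows below are shown because they belong to both feedback inhibitors and to Isg15, the interferon-response gene that differed most between granulocyte-like cells of Mll3/4SI and control; capitals mark the kB matches in the first 2 and 3 overlapping interferon core matches in the last. They lie at chr12:55492648-55492897, chr10:19015411-19015660 and chr4:156200819-156201068, all on the minus strand, and each reads 5′ to 3′ up to the start.

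Nfkbia: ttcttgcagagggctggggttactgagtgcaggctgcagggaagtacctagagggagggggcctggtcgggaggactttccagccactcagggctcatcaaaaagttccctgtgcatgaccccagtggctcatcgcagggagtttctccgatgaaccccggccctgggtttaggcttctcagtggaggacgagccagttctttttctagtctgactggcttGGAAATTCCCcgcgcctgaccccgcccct
Tnfaip3: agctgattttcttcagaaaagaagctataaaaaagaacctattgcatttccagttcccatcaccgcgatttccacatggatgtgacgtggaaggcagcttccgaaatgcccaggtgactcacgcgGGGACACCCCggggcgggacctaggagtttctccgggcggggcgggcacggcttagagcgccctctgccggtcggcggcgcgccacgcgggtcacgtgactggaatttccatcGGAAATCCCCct
Isg15: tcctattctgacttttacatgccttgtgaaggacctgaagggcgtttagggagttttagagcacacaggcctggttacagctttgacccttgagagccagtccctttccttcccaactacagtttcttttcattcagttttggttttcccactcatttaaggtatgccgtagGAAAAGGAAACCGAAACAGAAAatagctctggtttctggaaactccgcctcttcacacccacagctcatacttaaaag

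The kB match of Nfkbia ended 19 bases before the start, and those of Tnfaip3 ended 115 and 2 bases before it. The 3 core matches of Isg15 ended 68, 62 and 56 bases before it. A match of letters is a description of the window and says nothing of which protein bound there in these cells. Over the 70 other pathway genes, 59 had a window and 19 of these (32.2%) held a kB match.

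After filtering, 6743 control, 8023 Mll3SI, 10186 Mll4SI and 6755 Mll3/4SI cells remained, with medians of 12800 to 19185 unique molecular identifiers (UMIs, which count single RNA molecules) per cell; library pairs shared 16 to 29 barcodes. Kmt2c stood at 110.3 to 147 counts per 1000000 UMIs (CPM) and Kmt2d at 33.3 to 41.3 CPM, and without knowledge of the allele these levels check no label. Kit was at 100.2 to 112 CPM and Ptprc (CD45) at 179 to 312 CPM in the 4 libraries. Cells were sorted into classes by markers that exclude the 9 genes. Granulocyte-like cells were the largest class in each library, at 57.3% to 77.6%, and their late stages formed mostly separate clusters for Mll4SI, for Mll3/4SI and for control with Mll3SI. A cluster with no name (cluster 19, led by Cpa3 and Fcer1a) held 27.2% of the Mll3/4SI cells and at most 8 cells of any other library, so it entered none of the main comparisons. In the settings that classed cells differently, described at the end, such cells could enter. In the marker sums, 14 late granulocyte genes reached 8344 CPM in stem and progenitor (HSC/MPP-like) cells of Mll4SI against 1532 to 2001 in the other 3 libraries, and 7010 CPM against 1256 to 1586 in monocyte-like cells; its part in the Mll4SI values below was not tested.

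The levels of the 9 genes are described first by cell class, then by genotype.

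**Figure D1:**
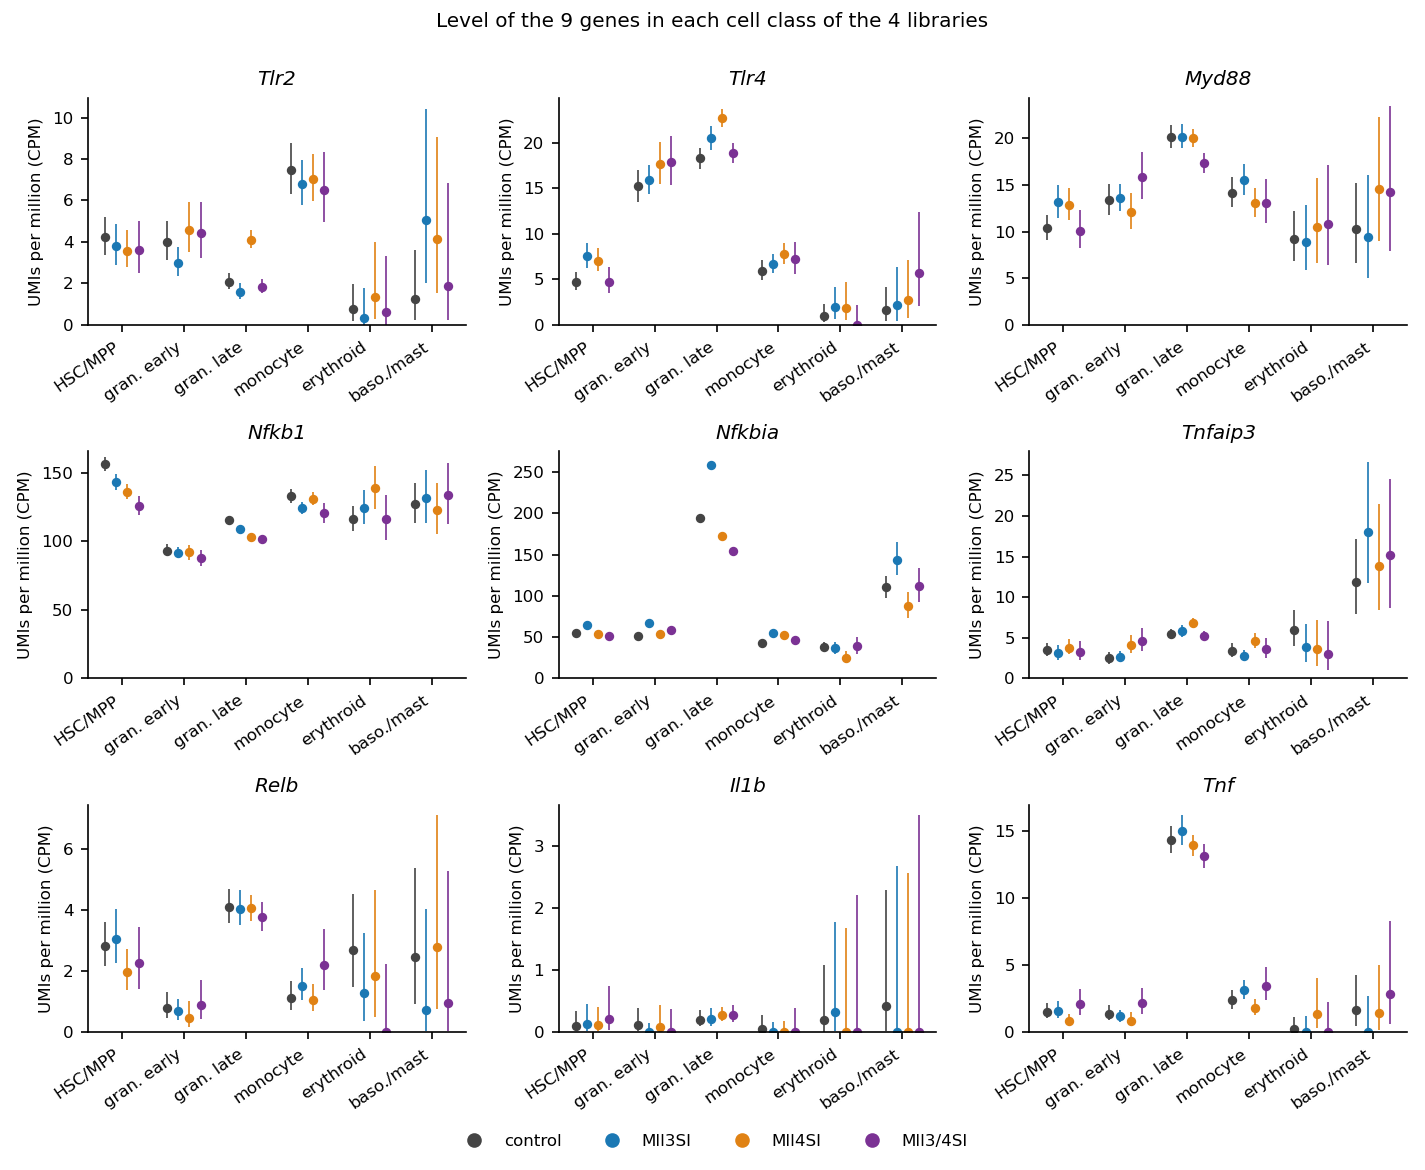
Level of each gene in CPM (y axis, linear, from 0) in 6 cell classes (x axis), with 1 point per library and vertical lines for the exact 95% Poisson interval of its UMI count. Nfkbia and Tnf stand apart in late granulocyte-like cells and Tlr2 in monocyte-like cells, and Tnfaip3 is highest in basophil/mast-like cells.

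The receptors differed in where they were found. Tlr4 (chr4:66827584-66930284, plus strand, GENCODE M21 on GRCm38 here and below) stood at 18.3, 20.5, 22.7 and 18.8 CPM in late granulocyte-like cells of control, Mll3SI, Mll4SI and Mll3/4SI, and at 5.96, 6.66, 7.76 and 7.23 CPM in monocyte-like cells. It was lowest in erythroid-like cells, with 5, 6, 4 and 0 UMIs in all, where 3 UMIs would be at most 1.80 CPM. Among HSC/MPP-like, granulocyte-like and monocyte-like cells, Tlr2 (chr3:83836272-83841767, minus strand) was highest in the last, at 7.47, 6.79, 7.02 and 6.49 CPM, with intervals that overlap between all 4 libraries. In late granulocyte-like cells it was at 2.08, 1.60, 4.11 and 1.83 CPM, so the Mll4SI library lay above the others. In the 52 dendritic-like cells of control, Tlr2 reached 15.4 CPM, from 8 UMIs.

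Part of the Mll4SI excess of Tlr2 lay in 1 cluster, chosen for description after its values were seen. Cluster 13, led by Mmp8, Retnlg and Mmp9, which are products of the most mature neutrophils, held 723 of the 7901 granulocyte-like cells of Mll4SI (9.15%) and 67 of 4265 (1.57%) of control. Its Tlr2 level was 24.1 CPM in Mll4SI and 31.4 CPM in control, against 10.7 CPM in cluster 12 and 7.23 CPM in cluster 23, the next highest of the Mll4SI library. Over all granulocyte-like cells Tlr2 was at 2.58 CPM in control and 4.17 CPM in Mll4SI. The log2 ratio of CPM + 1 was 0.53, and the counting interval of the ratio without the added 1 was 0.44 to 0.95. Cluster 13 gave 26.9% of the Tlr2 UMIs of Mll4SI granulocyte-like cells. Without it the levels were 2.42 and 3.20 CPM, so Mll4SI stayed above control. The mean over the 4 libraries, 2.76 CPM, was under the minimum for a call used below.

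Myd88 (chr9:119335934-119341411, minus strand), the adaptor that both receptors share, was found in every class. It stood at 20.2, 20.2, 19.97 and 17.3 CPM in late granulocyte-like cells of control, Mll3SI, Mll4SI and Mll3/4SI, with the Mll3/4SI interval (16.3 to 18.4) below that of control (18.99 to 21.4). It ranged from 13.04 to 15.5 CPM in monocyte-like cells and from 10.1 to 13.1 CPM in HSC/MPP-like cells. It reached 27.02 CPM in the control dendritic-like cells, from 14 UMIs. The Myd88 gene overlaps Slc22a14 on its own strand and Acaa1a on the other in that annotation, so reads of the neighbours could enter its count.

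Nfkb1 (chr3:135584655-135691547, minus strand), which encodes the p105 precursor of p50, was found in every class, from 80.1 CPM in B-lymphoid-like cells of control to 324 CPM in its dendritic-like cells. In HSC/MPP-like cells it stood at 156, 143, 136 and 126 CPM in control, Mll3SI, Mll4SI and Mll3/4SI, with control highest. In late granulocyte-like cells the order was the same, at 116, 109, 103 and 102 CPM, although the Mll4SI and Mll3/4SI intervals overlap. Relb (chr7:19606217-19629438, minus strand), the partner of p52, was at 4.10, 4.05, 4.06 and 3.76 CPM in late granulocyte-like cells and 0.79, 0.67, 0.46 and 0.89 CPM in early ones.

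The inhibitor genes differed by granulocyte stage and in rarer cells. Nfkbia (chr12:55489410-55492647, minus strand) stood at 51.9, 67.2, 53.9 and 58.8 CPM in early granulocyte-like cells (clusters 14 and 17, led by Elane and Prtn3) of control, Mll3SI, Mll4SI and Mll3/4SI. In late cells it stood at 194, 259, 173 and 155 CPM, so the stages did not overlap in any library. The ratio of late to early was 3.74, 3.85, 3.21 and 2.63 in the same order of libraries. Thinned to 3000 UMIs per cell, 37.0% of control granulocyte-like cells had an Nfkbia UMI, against 8.09% of erythroid-like cells (83.7% and 43.9% without thinning, at medians of 15776 and 16830 UMIs). Tnfaip3 (chr10:19000910-19015657, minus strand) was at 5.26 to 6.85 CPM in late granulocyte-like cells but at 11.9, 18.1, 13.9 and 15.1 CPM in basophil/mast-like cells, and at 25.6 CPM (31 UMIs) in B-lymphoid-like cells of control and 13.7 CPM (33 UMIs) in those of Mll3SI. Basophil/mast-like cells were thus above HSC/MPP-like, granulocyte-like and monocyte-like cells in each of the 4 libraries for Tnfaip3.

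Tnf (chr17:35199381-35202007, minus strand) was found mostly in granulocyte-like cells, which held 89.7% of its 3997 UMIs. Late cells stood at 14.3, 15.03, 13.9 and 13.1 CPM in control, Mll3SI, Mll4SI and Mll3/4SI, and early cells at 1.37, 1.14, 0.84 and 2.17 CPM. Late cells were therefore 10.5, 13.1, 16.5 and 6.04 times higher, from 26, 29, 11 and 22 UMIs in the early clusters, and the 4 late intervals overlap. Thinned to 3000 UMIs, 3.30% of control granulocyte-like cells had a Tnf UMI, against 0.43% of erythroid-like cells (14.7% and 0.42% without thinning). Monocyte-like cells, whose mature descendants are classical producers of TNF, stood at only 2.34, 3.09, 1.79 and 3.46 CPM.

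**Figure D2:**
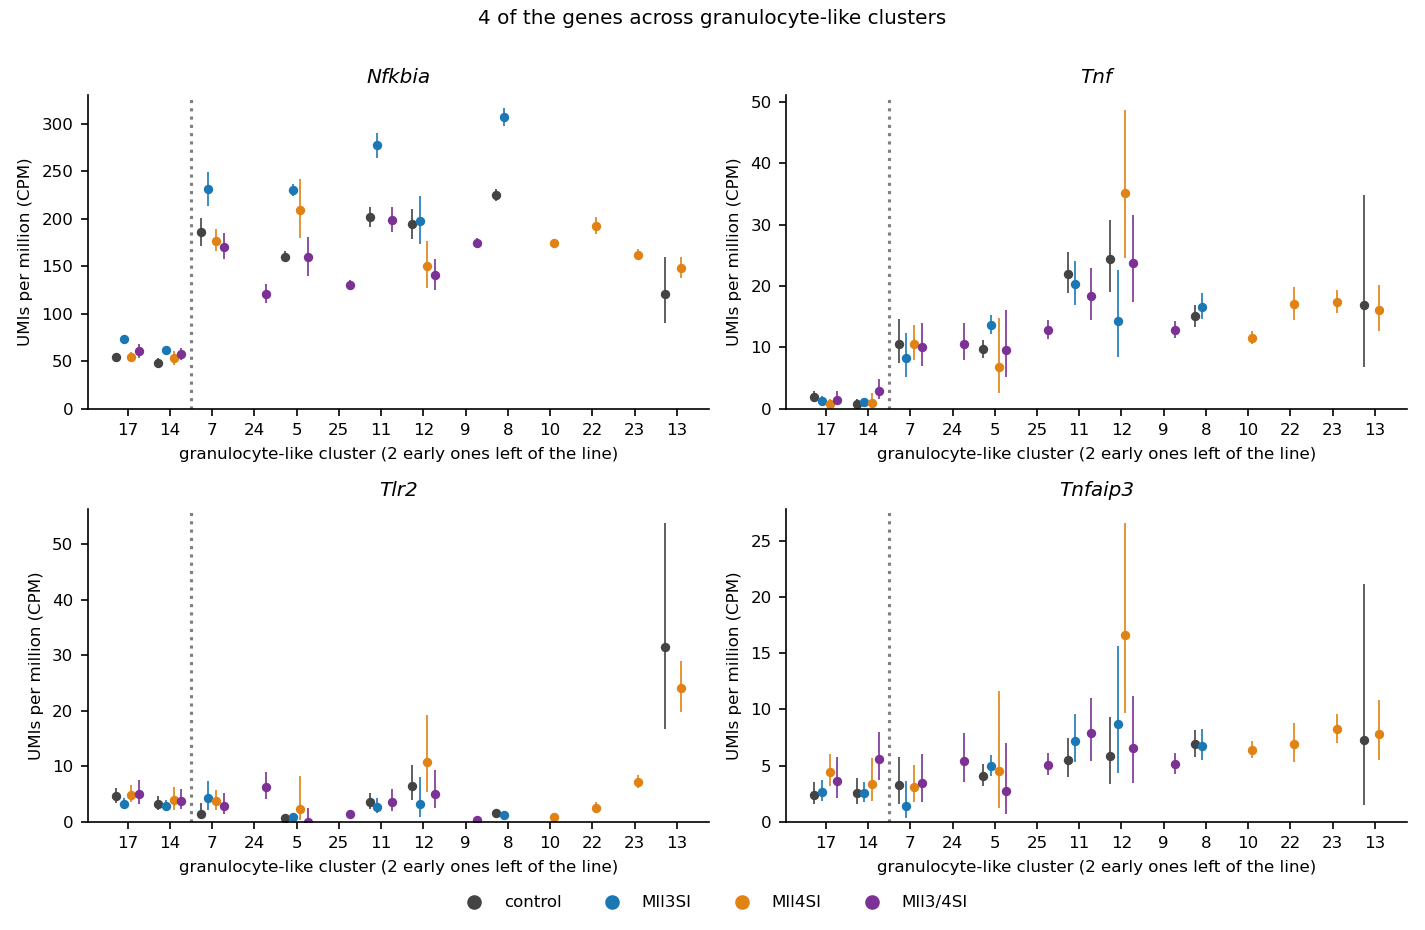
Level of Nfkbia, Tnf, Tlr2 and Tnfaip3 in CPM (y axes, linear, from 0) in each granulocyte-like cluster (x axis) with at least 50 cells of the library drawn; points are libraries and vertical lines exact 95% Poisson intervals. The 2 early clusters left of the dotted line lie below all late clusters for Nfkbia and Tnf, and cluster 13 stands alone for Tlr2 at 24.1 CPM in Mll4SI and 31.4 CPM in control.

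The clusters resolve the Nfkbia pattern further, since 5 clusters held at least 50 cells of every library. In cluster 7, led by Fcnb, Nfkbia was at 186, 231, 177 and 171 CPM in control, Mll3SI, Mll4SI and Mll3/4SI. In cluster 5 it was at 160, 230, 209 and 159 CPM. The Mll3SI library was highest in each of these and in clusters 14 and 17, where it reached 61.3 and 73.1 CPM against 48.5 and 54.5 CPM in control. In clusters 8 and 11 it was highest only among libraries with at least 50 cells there, at 307 and 277 CPM against 225 and 202 CPM in control. Cluster 8 held 27 Mll4SI and 17 Mll3/4SI cells, and cluster 11 held 10 Mll4SI cells. In cluster 12 control and Mll3SI were close, at 194 and 197 CPM.

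Il1b (chr2:129364570-129371139, minus strand), whose product is activated after cleavage by inflammasomes, was sparse. Where its UMIs lay differed between libraries. It had 184 UMIs in all 4 libraries, or 0.39, 0.42, 0.31 and 0.26 CPM over all kept cells of control, Mll3SI, Mll4SI and Mll3/4SI. Monocyte-like cells gave 1 of these UMIs, from 3026 cells. A small cluster of 358 cells (cluster 20, led by Pf4) gave 92, which is 50% of all. By library it gave 58%, 71.2%, 40% and 21.6% of the Il1b UMIs of control, Mll3SI, Mll4SI and Mll3/4SI. Late granulocyte-like cells gave 20%, 19.2%, 51.1% and 45.9%. Cluster 20 held 7 of the megakaryocyte markers and 7 of the HSC/MPP markers and so carries no name (its description was chosen after its Il1b values were seen); Pf4, a platelet granule chemokine, stood there at 3041 to 4019 CPM.

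The Il1b level in cluster 20 was 14.1, 15.02, 10.4 and 9.91 CPM, from 29, 37, 18 and 8 UMIs. The 4 intervals overlap, and the lowest bound, 4.28 CPM in Mll3/4SI, is above the upper bound in granulocyte-like, monocyte-like and HSC/MPP-like cells of every library. An Il1b UMI was seen in 21.2%, 23.6%, 16.5% and 19.4% of its cells, at most 5 in one cell, so no single cell carried the signal. Among late granulocyte-like cells 1 Mll4SI cell held 12 of that library's 23 UMIs. Tnf was nearly absent from cluster 20, at 0.48, 0.81, 0.58 and 0 CPM, and Nfkbia was at 59.2, 77.5, 26.5 and 49.6 CPM. Tlr4 was low there, at 3.39 to 4.96 CPM. Cluster 27, with 8 HSC/MPP and 7 erythroid markers, gave 2, 2, 1 and 6 UMIs, or 2.04, 2.49, 1.88 and 12.8 CPM. The Mll3/4SI interval there, from 21 cells, was 4.71 to 27.9 CPM and overlaps that of cluster 20. In granulocyte-like cluster 13 Il1b stood at 7.26, 12.7, 3.04 and 3.87 CPM, from 3, 2, 14 and 1 UMIs. Il1b was therefore not confined to cluster 20. An antisense gene, Il1bos, overlaps Il1b.

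**Figure D3:**
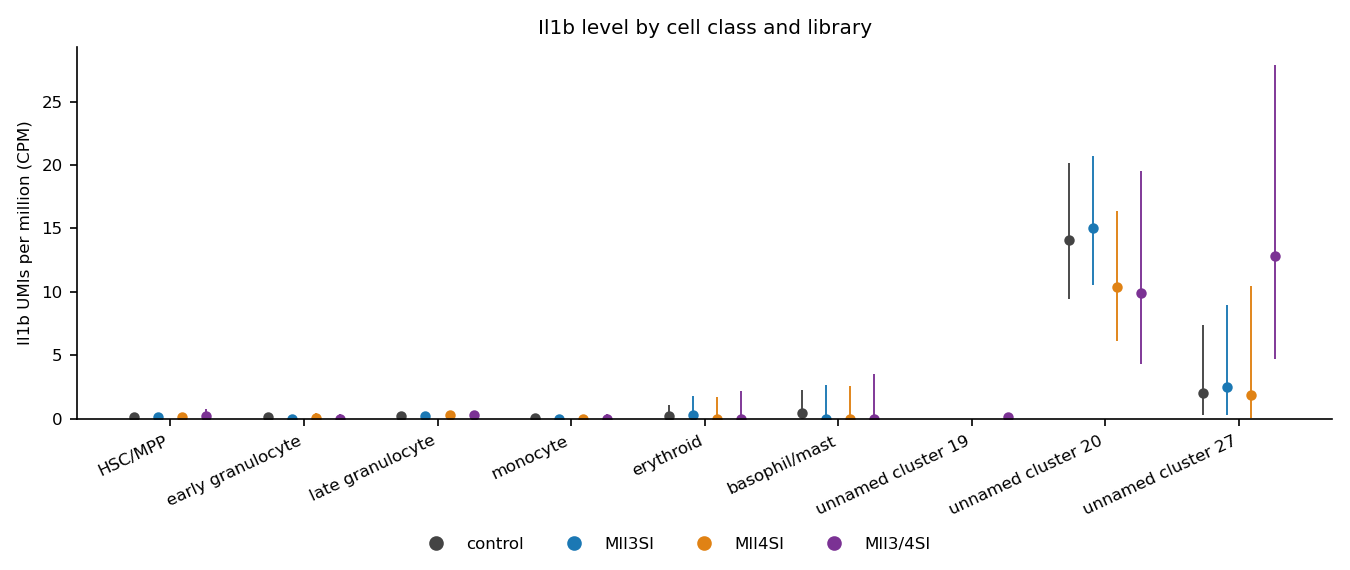
Il1b level in CPM (y axis, linear, from 0) by cell class or unnamed cluster (x axis), drawn where a library has at least 20 cells; points are libraries and vertical lines exact 95% Poisson intervals. The 4 points of cluster 20 lie between 9.91 and 15.02 CPM, and those of the named myeloid classes near 0.

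To compare genotypes, a log2 ratio of CPM + 1 was taken against control within HSC/MPP-like, granulocyte-like and monocyte-like cells, and a gene was called different past 1.5-fold (0.58 on the log2 scale) where its mean over the 4 libraries was at least 5 CPM. This left 4 of the 9 genes in HSC/MPP-like cells (Tlr4, Myd88, Nfkb1 and Nfkbia), 6 in granulocyte-like cells (these, Tnfaip3 and Tnf) and 5 in monocyte-like cells (the first 4 and Tlr2). Ratio intervals are those of the CPM ratio without the added 1. At low levels they are therefore not centred on the log2 ratio printed beside them, and can exclude it. None of the measured genes passed 1.5-fold in any of these 9 comparisons. The background of genes past it was 1.16%, 4.12% and 3.08% in HSC/MPP-like cells of Mll3SI, Mll4SI and Mll3/4SI, 1.78%, 10.3% and 7.02% in granulocyte-like cells and 0.925%, 3.41% and 2.5% in monocyte-like cells. A count of 0 among 4 to 6 genes is close to these shares, so it says nothing particular to the 9 genes. Erythroid-like cells, used here mainly as background, held 1 call among the 3 genes measured: Nfkbia was lower in Mll4SI, at 38.4 and 25.02 CPM, from 200 and 55 UMIs (log2 ratio -0.60, interval -1.08 to -0.18). There the share of all genes past 1.5-fold was 5.08%, 9.33% and 12.1% in Mll3SI, Mll4SI and Mll3/4SI, from 103 cells in Mll4SI and 63 in Mll3/4SI, and Mll3SI and Mll3/4SI had no call. In basophil/mast-like cells, at 62 to 165 per library, 0 of 4 measured genes passed. The share of all genes past 1.5-fold was not computed there, so nothing is read from this count. Fewer cells of a subtype and less RNA per cell cannot be told apart within a class.

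Tlr4 in HSC/MPP-like cells came closest to the threshold. It stood at 4.74, 7.52, 7.06 and 4.73 CPM in control, Mll3SI, Mll4SI and Mll3/4SI, from 101, 123, 130 and 46 UMIs. Control and Mll3/4SI were under 5 CPM, so its mean of 6.01 CPM reached the minimum through Mll3SI and Mll4SI. Its place among the genes measured there thus follows in part from the filter. Mll3SI was above control by 0.57 (interval 0.27 to 1.06) and Mll4SI by 0.49 (0.19 to 0.97). Mll3/4SI differed from control by 0.00, with an interval of -0.54 to 0.52. The Mll3SI value is just under the threshold on the scale of CPM + 1, although the levels without the added 1 are past 1.5-fold. It passed the threshold in cells of Hashtag2, one of 2 antibody barcodes in each library whose meaning the labels do not give. The levels there were 4.18 against 7.84 CPM, beside 5.43 against 7.47 CPM in Hashtag1 cells. In Mll4SI the pairs were 4.18 against 7.71 CPM and 5.43 against 5.91 CPM. Myd88 had the same order of groups, at 10.4, 13.1, 12.9 and 10.1 CPM. The Mll3SI log2 ratio of Myd88 was 0.32, with an interval of 0.06 to 0.62, and that of Mll4SI 0.29, with 0.04 to 0.58. For the double mutant it was -0.04 (-0.40 to 0.31). Thinned to 3000 UMIs, 1.31%, 2.43%, 1.11% and 1.68% of HSC/MPP-like cells had a Tlr4 UMI (9.83%, 12.4%, 12.5% and 9.97% without thinning). The thinned shares do not follow the order of the CPM, and no order is read from them.

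Nfkbia was above control in the 3 main classes of Mll3SI. In basophil/mast-like cells of control and Mll3SI it stood at 111 and 144 CPM (log2 ratio 0.38, interval 0.11 to 0.65), and in erythroid-like cells at 38.4 and 36.3 CPM. In the main classes the values were as follows. The log2 ratio was 0.21 (0.09 to 0.34) in HSC/MPP-like, 0.29 (0.26 to 0.33) in granulocyte-like and 0.36 (0.24 to 0.49) in monocyte-like cells, or 55.4 to 64.3, 156 to 192 and 42.7 to 55.2 CPM. Within hashtags the granulocyte-like levels were 157 against 172 CPM for Hashtag1 and 155 against 205 CPM for Hashtag2, so the difference was larger in Hashtag2. In monocyte-like cells they were 43.9 and 50.9 CPM, and 41.1 and 59.5 CPM. In HSC/MPP-like cells Hashtag1 hardly differed, at 56.3 and 57.6 CPM, and the difference lay in Hashtag2, at 55.6 and 70.03 CPM. A list of 15 immediate early genes, which respond to tissue handling, was measured beside it. In Mll3SI monocyte-like cells 9 of 10 measured genes of that list were above control, with a median of 0.22 against 0.00 over all genes. In granulocyte-like cells 4 of 8 were, with a median of 0.11, and in HSC/MPP-like cells 7 of 9, with a median of 0.16 against 0.02. Whether this bears on Nfkbia was not tested. In Mll4SI, Nfkbia was above control in monocyte-like cells alone among the 3 classes, at 52.5 CPM, by 0.29 (0.17 to 0.43).

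In Mll3/4SI and in Mll3SI, Nfkb1 was below control in the 3 main classes. The Mll3/4SI log2 ratio was -0.31 (-0.41 to -0.22) in HSC/MPP-like, -0.14 (-0.18 to -0.09) in granulocyte-like and -0.14 (-0.24 to -0.04) in monocyte-like cells, while the median of all genes was -0.06, -0.10 and -0.03. In Mll3SI it was -0.13 (-0.21 to -0.05), -0.09 (-0.14 to -0.04) and -0.10 (-0.18 to -0.02), beside 0.02, 0.01 and -0.004. In Mll4SI it was -0.20 (-0.28 to -0.13), -0.10 (-0.15 to -0.06) and -0.02 (-0.10 to 0.06), beside -0.02, -0.10 and -0.02. A level below that of control was thus not particular to Mll3/4SI. Within hashtags the HSC/MPP-like levels of control and Mll3/4SI were 153 and 121 CPM (Hashtag1) and 158 and 136 CPM (Hashtag2), and the granulocyte-like levels 112 and 105 CPM and 107 and 94.4 CPM. In monocyte-like cells the sign differed between hashtags, with 137 and 111 CPM for Hashtag1 and 128 and 136 CPM for Hashtag2. Nfkbia in granulocyte-like cells of Mll3/4SI was lower by a similar amount, at 141 against 156 CPM (-0.14, interval -0.18 to -0.11). In the early clusters alone its sign was the opposite, 58.8 against 51.9 CPM (0.18, 0.03 to 0.33), and late clusters of Mll3/4SI were mostly its own.

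Tnfaip3 in granulocyte-like cells was at 4.65, 4.69, 6.49 and 5.18 CPM, with the Mll4SI library highest by 0.41 (0.29 to 0.68), and its mean reached the minimum only through that library. In early granulocyte-like cells its level was 2.47, 2.61, 4.13 and 4.64 CPM from 47, 66, 54 and 47 UMIs, which gives Mll4SI a log2 ratio of 0.57 (0.15 to 1.34). The Mll3/4SI ratio was 0.70, with an interval of 0.30 to 1.53. The mean there, 3.46 CPM, is under the minimum for a call, and within Mll3/4SI the early cells stood at 2.995 CPM for Hashtag1 and 6.52 CPM for Hashtag2, against 2.32 and 2.28 CPM in control. Late granulocyte genes also differed between these early cells, summing to 4751, 6301, 14361 and 22776 CPM in control, Mll3SI, Mll4SI and Mll3/4SI; their part was not tested. Tnf differed from control by at most 0.15 in granulocyte-like cells. Relb reached 0.59 (0.04 to 1.89) in Mll3/4SI monocyte-like cells, from 23 and 21 UMIs, and its mean of 1.47 CPM was also under the minimum.

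The wider pathway was described with 70 genes in 5 lists: 17 other receptors and co-receptors, 17 adaptors and kinases, 3 other NF-kB subunits, 13 inhibitors and 20 inducible targets. In HSC/MPP-like cells 41 were measured above the minimum. Against control, 0 were past 1.5-fold in Mll3SI, 1 was lower in Mll4SI (Tnip3, which encodes an A20-binding inhibitor, at 8.39 and 1.95 CPM, named after its values were seen) and 1 was lower in Mll3/4SI (Nfkbid, encoding the nuclear protein IkB-NS, at 6.85 and 4.12 CPM). Of all genes 1.16%, 4.12% and 3.08% were past 1.5-fold there, so these counts are near the background. The median log2 ratio of the 41 was 0.02, 0.00 and -0.09, beside 0.02, -0.02 and -0.06 for all genes. The 3 highest of the 41 in Mll3/4SI were Il1rap, the shared chain of the interleukin-1 receptor, at 0.31, Zc3h12a, an RNase that limits cytokine transcripts, at 0.31, and Nfkbib, a relative of Nfkbia, at 0.30. The lowest were Nfkbid at -0.62, the chemokine Ccl4 at -0.44 and the kinase-like inhibitor Irak3 at -0.30. Of the other subunits, Rel and Rela lay within 0.11 of control in HSC/MPP-like cells of all 3 mutant libraries, while Nfkb2 was under the minimum.

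In granulocyte-like cells 36 of the 70 were measured. In Mll3SI 1 was higher (Bcl3) and 1 lower (Il1r2), in Mll4SI 4 were higher and 1 lower, and in Mll3/4SI 4 were higher and 1 lower, beside 1.78%, 10.3% and 7.02% of all genes past 1.5-fold in either direction, so these counts are near the background and are read only gene by gene. Clec4e, a receptor for mycobacterial glycolipid and dying cells, stood at 13.5, 14.0, 38.4 and 30.8 CPM, with log2 ratios of 1.44 in Mll4SI and 1.13 in Mll3/4SI. Il1rn, the secreted antagonist of interleukin-1, stood at 2.99, 2.25, 13.05 and 7.40 CPM, with ratios of 1.82 and 1.07. Il1rn reached the minimum only through the libraries where it was high, so its place among the called genes follows from the filter. Mll4SI and Mll3/4SI were therefore both above control and Mll3SI for these genes. The decoy receptor gene Il1r2 did the same, at 13.5, 8.23, 23.7 and 23.7 CPM, and was named after its values were seen. Bcl3, a nuclear IkB protein, was at 4.43, 7.19, 5.31 and 9.07 CPM, and Nfkbiz, another one, at 14.3 and 22.0 CPM in control and Mll4SI, named likewise. Bcl3 was under 5 CPM in control, so it too reached the minimum through the mutant libraries. Of the 34 genes at 5 CPM or more in control, 0, 3 and 2 were higher in Mll3SI, Mll4SI and Mll3/4SI, and 1 was lower in each. Ccl9, a chemokine, was lower at 23.2, 28.8, 13.3 and 9.04 CPM, with ratios of -0.76 in Mll4SI and -1.27 in Mll3/4SI. Unc93b1, which carries endosomal Toll-like receptors, and Sod2 lay between -0.36 and -0.27 in both. The median of the 36 genes was -0.05, 0.08 and -0.01 in Mll3SI, Mll4SI and Mll3/4SI, against 0.01, -0.10 and -0.10 for all genes. These genotypes' late granulocyte-like cells lie in clusters of their own, so stage and genotype cannot be told apart in these values.

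In monocyte-like cells 40 were measured, with medians of -0.04, 0.00 and -0.06, beside -0.004, -0.02 and -0.03 for all genes. Of all genes 0.925%, 3.41% and 2.5% were past 1.5-fold in Mll3SI, Mll4SI and Mll3/4SI. The few calls below are read only gene by gene. Cd14, the co-receptor of Tlr4, was the 1 gene past the threshold in Mll3SI, at 4.49 CPM in control and 20.7 CPM. Its mean was under the minimum in the other classes, where Cd14 stood at 1.08 and 7.64 CPM (HSC/MPP-like) and at 1.38 and 5.55 CPM (granulocyte-like). In Mll4SI Il1r1 and Nlrp3 were higher and Ccl9 lower, and in Mll3/4SI Il1r1, Nlrp3 and Clec4e were higher. These genes were named after their values were seen, and Cd14 in Mll3SI and Il1r1 in both other mutants reached the minimum mean only through the mutant libraries. Il1r1, the signalling receptor of interleukin-1, went from 3.96 CPM in control to 7.99 and 7.44 CPM, and the inflammasome sensor Nlrp3 from 5.23 to 8.82 and 9.53 CPM.

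Interferon-response genes gave a different picture in Mll3/4SI. Of 17 such genes in the files, 12 were measured in HSC/MPP-like cells, and 7 of these were past 1.5-fold and none lower, with a median log2 ratio of 0.77 (median interval 0.51 to 1.17). In Mll3SI 1 of the 12 was higher and in Mll4SI 0, with medians of 0.01 and -0.11. The share of all genes past 1.5-fold in either direction was 1.16%, 4.12% and 3.08% in Mll3SI, Mll4SI and Mll3/4SI. Ifi27l2a stood at 8.91, 13.9, 6.68 and 47.6 CPM in control, Mll3SI, Mll4SI and Mll3/4SI, Isg15 at 5.72, 7.21, 5.37 and 21.7 CPM, and the antiviral Oasl2 at 10.5, 12.0, 9.88 and 22.5 CPM. In the same Mll3/4SI cells Nfkbia was at 51.9 against 55.4 CPM and Tlr4 at 4.73 against 4.74 CPM. All 12 genes were at 5 CPM or more in control, although Usp18 averaged under 5 CPM over the 3 libraries other than Mll3/4SI. The set of interferon genes had been seen to differ in earlier work on these data, so the contrast between both lists is a description.

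**Figure D4:**
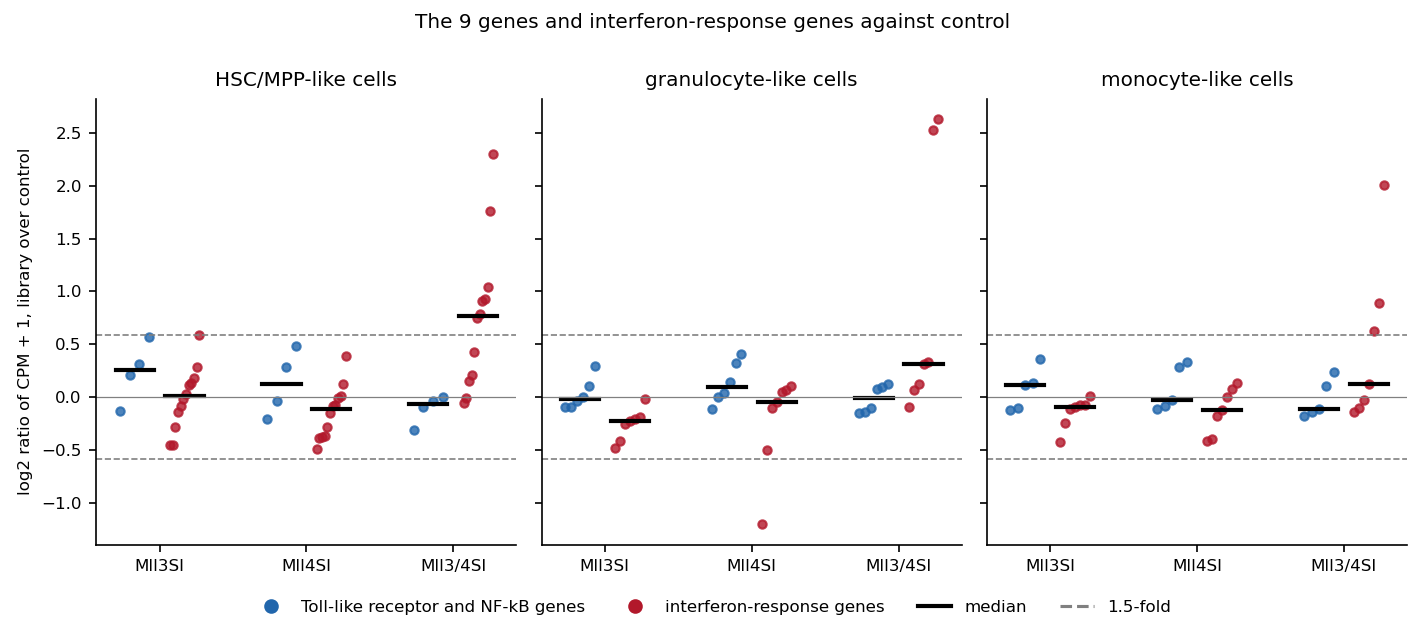
Log2 ratio of CPM + 1 against control (y axis) in 3 cell classes (panels) for each mutant library (x axis); blue points are the Toll-like receptor and NF-kB genes and red points the interferon-response genes with a mean of at least 5 CPM, black bars are medians and dashed lines mark 1.5-fold. All blue points lie between the dashed lines, and in Mll3/4SI red points reach 2.29 in HSC/MPP-like and 2.63 in granulocyte-like cells.

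In granulocyte-like cells of Mll3/4SI the interferon values depended on which genes were measured. Isg15 was at 2.79 CPM in control and 22.5 CPM in Mll3/4SI (2.63) and Ifi27l2a at 4.75 and 32.2 CPM (2.53), while the third highest of the 7 measured, the immunity-related GTPase Irgm1, was at 7.18 and 9.34 CPM (0.34). Isg15 and Ifi27l2a reached the mean of 5 CPM only through Mll3/4SI, so that they were called follows in part from the filter. Oasl2, at 2.32 and 13.9 CPM, missed it by little. The median of the 7 was 0.32, that of the 5 genes with at least 5 CPM in control 0.12 with 0 past 1.5-fold, and that of all genes of the list with no minimum 1.68. Over all measured genes 7.02% were past 1.5-fold in these cells. In early granulocyte-like cells 9 were measured, with a median of 0.71, but Isg15, Oasl2 and Oas1a passed only through Mll3/4SI. Of the 7 at 5 CPM or more in control, 3 were past 1.5-fold and the median was 0.34. The share of all genes past 1.5-fold was not computed for the early cells. In monocyte-like cells 3 of 7 were past 1.5-fold, beside 2.5% of all genes, with a median of 0.12, and all 7 were at 5 CPM or more in control. Tnf, Nfkbia and Tnfaip3 differed from control by 0.08, -0.14 and 0.13 in the same Mll3/4SI granulocyte-like cells.

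The interferon signal was unequal between the hashtags of the Mll3/4SI library. Isg15 in granulocyte-like cells was at 9.64 CPM in Hashtag1 cells and 35.3 CPM in Hashtag2 cells, against 2.64 and 2.98 CPM in control. Ifi27l2a was at 14.3 and 48.3 CPM, against 5.77 and 3.51 CPM. Over the same 7 genes, 2 of them admitted by their Mll3/4SI level, the median was 0.07 for Hashtag1 and 0.53 for Hashtag2, and over the 12 of HSC/MPP-like cells 0.64 and 1.04. The 36 pathway genes had medians of -0.03 and -0.02 in granulocyte-like cells, and the 41 of HSC/MPP-like cells -0.05 and -0.02. In early granulocyte-like cells the 33 pathway genes measured had medians of -0.04 and 0.12, and the 4 measured of the 9 genes 0.04 and 0.31, with Hashtag2 higher in both, beside 0.30 and 1.05 for the 9 interferon genes. The difference between hashtags was not tested. For single genes, Nfkbia in Mll3/4SI granulocyte-like cells was at 150.2 CPM in Hashtag1 and 132 CPM in Hashtag2 cells. In HSC/MPP-like cells the order was the opposite, at 49.5 and 56.9 CPM, as it was in early granulocyte-like cells, at 51.5 and 67.3 CPM, so Nfkbia had no common order between the hashtags. Tnf was at 10.9 and 12.3 CPM, against 12.4 and 9.28 CPM in control.

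**Figure D5:**
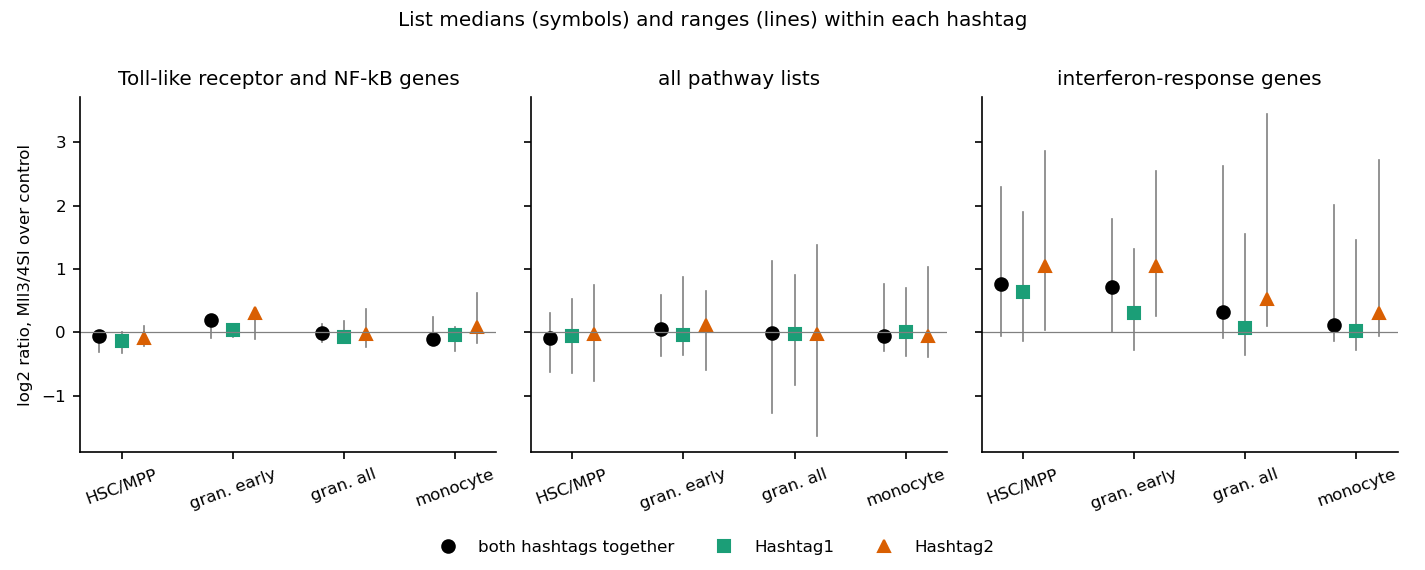
Median (symbols) and range (lines) of the log2 ratio of Mll3/4SI to control (y axis) in 4 groups of cells (x axis) for the Toll-like receptor and NF-kB genes, the 70-gene pathway lists and the interferon-response genes (panels), with all cells together and for each hashtag. Interferon medians are higher for Hashtag2 than for Hashtag1 in every group of cells drawn, and pathway medians lie within 0.12 of 0.

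Genes with the most similar pattern over 37 sums of UMIs (each library and class of at least 50 cells) were listed for the 4 genes with a mean of at least 10 CPM, by Pearson correlation of log2 levels among 8769 genes. For Tlr4 these were Rnf19b, Lyst and Sun2, at 0.90, 0.90 and 0.89. For Nfkb1 they were Myo9a (0.92), Eya3 and Spag9 (both 0.89), and for Nfkbia Slc9a3r1, Ostf1 and Plp2, at 0.79, 0.79 and 0.78. Myd88 had no close match, with Arf3, Bnip2 and Card19 at 0.64, 0.63 and 0.62. The sums share libraries and depth, so these values order the genes and test nothing.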

How the data were processed

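The 4 libraries were deposited as counts of UMIs per feature and cell barcode, made by the authors with Cell Ranger 7.1.0 on the mm10 build, per the file headers and the submitters' processing notes; 10x 3′ version 3.1 chemistry was used per the labels. Whether intronic reads were counted is not given in the sources used here, and it changes levels between genes. Antibody and hashtag counts in the same matrices were deposited alongside, and hashtags served only to divide cells.

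Barcodes with at least 500 genes, at least 1000 UMIs and at most 10% mitochondrial UMIs were kept, and the highest doublet scores of scanpy 1.11.5 were removed at 0.8% per 1000 cells (409 to 1001 cells per library). The libraries were clustered jointly (2000 variable genes, 30 principal components, 15 neighbours, Leiden resolution 1), without the marker genes or any listed gene. Clusters were named from fixed markers: at least 3 markers past a log2 fold of 1 and a lead of 3 over the next class, the lead being set after clusters were seen, as was the division of a mixed erythroid and basophil cluster. UMIs were summed per library and class and scaled to CPM. Of 4 libraries with 1 sample per group, none has a replicate, so no p-value or SD is given; intervals are 95% exact Poisson for levels, exact conditional binomial for ratios and Clopper-Pearson for shares. The ratio intervals leave out the added 1 CPM that the printed log2 ratios include, so at low levels they lie off the printed ratio and can exclude it. UMI totals of 123467962 to 146807326 in kept cells set the precision. The ratio intervals were run on simulated Poisson counts, which is the spread they assume, so that run does not cover uneven counts between cells.

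Genes named were the 9, the 3 highest and 3 lowest pathway genes and the 3 highest interferon genes by the Mll3/4SI ratio in HSC/MPP-like and granulocyte-like cells, the NF-kB subunits and the closest patterns. The genes and lists were chosen with earlier results of these data known.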

Additional observations from a re-analysis of the deposited data

How the results depend on the processing

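No paired analysis was possible because the labels give no replicate numbers and each group is 1 library. The genes tested were held fixed except in the early clusters and where the minimum level was the setting. The count of the 9 genes past 1.5-fold stayed at 0 in 118 alternative values and became 1 in the other 8: in HSC/MPP-like cells of Mll3SI without cells above both hashtag thresholds, in Hashtag2 cells and at Leiden resolution 2 (Tlr4, at 0.60, 0.77 and 0.67), in those of Mll4SI in Hashtag2 cells (Tlr4, 0.75), and in monocyte-like cells of Mll3/4SI with no minimum level (Relb, 0.59), by a mean over cells, in Hashtag2 cells and by the class of the nearest control cells (Tlr4, 0.69, 0.62 and 0.91). The interferon median in HSC/MPP-like cells of Mll3/4SI, 0.77, was 0.21 with a minimum of 20 CPM, which leaves fewer genes, 1.20 at Leiden resolution 2 and 1.24 by nearest control cells. In granulocyte-like cells, 0.32 became 0.45 with median-of-ratios size factors, 1.68 with no minimum, 0.0749 in Hashtag1 and 0.53 in Hashtag2 cells and 0.66 at Leiden resolution 2; 3 settings added after seeing the data gave 0.71 (early clusters), 0.45 (clusters with 50 or more cells of every library) and 0.12 (a minimum of 5 CPM in control), which drops the genes that pass only through a mutant. In monocyte-like cells, 0.12 became 0.78 with no minimum, 0.38 with a minimum of 20 CPM and 0.69 by nearest control cells. In Hashtag2 cells of Mll3SI the median was -0.26 (HSC/MPP-like) and -0.49 (monocyte-like). The pathway median in granulocyte-like cells became 0.21 (Mll4SI) and 0.11 (Mll3/4SI) with size factors, and 0.10 in the shared clusters of Mll3/4SI. Except where the setting's construction shows it, the cause was not tested. Leaving out cluster 13, also added after seeing the data, moved no tested ratio of the 9 genes by over 0.04. At 184 UMIs, Il1b differences between genotypes were not detectable at this depth.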

Other observations

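The Cpa3 and Fcer1a cluster that is nearly exclusive to Mll3/4SI (1836 cells) had no control counterpart to compare with, and its levels are given as values. Tlr2 stood at 6.69 CPM, Tlr4 at 11.0, Myd88 at 15.3, Nfkb1 at 126, Nfkbia at 66.5, Tnfaip3 at 6.16 and Tnf at 1.48 CPM. Il1b gave 4 UMIs there, or 0.09 CPM.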
